A study of Mus musculus with 2 samples.

Results

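Long noncoding RNA (lncRNA) promoters that were open in both maps of the embryonic mouse face are described here, peak by peak. In DNase-seq the enzyme DNase I cuts where DNA is not covered by nucleosomes, and the cuts are sequenced. The tissue was the facial prominence of healthy B6NCrl mouse embryos at day 11.5, pooled over both sexes. All data came from 2 libraries, biological replicates 1 and 2 of this 1 group, so that no conditions could be compared. In each library the authors had called peaks, all 150 bp wide. A replicate 1 peak on chromosomes 1 to 19 was a member when a replicate 2 peak covered at least 75 bp of it, when its midpoint lay within 500 bp of a transcription start site (TSS) of an lncRNA gene, and when it lay more than 1 kb from every protein-coding TSS. The lncRNA genes were those of the types lincRNA, antisense and bidirectional_promoter_lncRNA in GENCODE mouse release M21. Of 83993 shared peaks 1318 were members. They came from 2266 replicate 1 peaks at such promoters, of which 58.2% were matched. Of all 205599 replicate 1 peaks 40.9% were matched, of those within 500 bp of a protein-coding TSS 71.9%, and of the other peaks more than 1 kb from protein-coding TSSs 35.6%. Members were chosen by the measured positions of peaks in both libraries, and nothing is read from these shares. Another 1373 shared peaks lay within 500 bp of an lncRNA TSS but within 1 kb of a protein-coding one and were not taken.

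LncRNA genes are transcribed by RNA polymerase II from promoters much like those of protein-coding genes, and their RNAs are spliced and polyadenylated in many cases, but they encode no known protein. A lincRNA gene lies between protein-coding genes, an antisense gene overlaps one on the opposite strand, and a bidirectional lncRNA starts back to back with one. Some lncRNAs act on genes beside them, as imprinted lncRNAs do on their clusters, some carry microRNAs or small nucleolar RNAs in their introns, and for most no role is known. An open promoter shows that DNase I reached the DNA there. It does not measure transcription, and RNA was not analysed here.

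The tissue label was set against marker genes with a shared peak within 500 bp of a protein-coding TSS. Of 51 craniofacial regulators 47 had such a peak, and so did 6 of 8 ectoderm genes, 6 of 7 neuron genes, 3 of 4 muscle genes and 3 of 6 endothelial genes. Of 5 erythroid, 5 macrophage and 4 liver genes 1, 1 and 0 had one. Over all protein-coding genes the share was 62.9%. How much each cell type gave to the members was not tested.

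The members shown first are those on which the results turn, printed 5′ to 3′ on the strand of the lncRNA gene, from NCBI RefSeq's GRCm38.p6 (mm10) genome. Capitals mark letters of the motifs searched for, which are spelled out further on. The first 3 peaks are strong and rich in CpG: Snhg6 (chr1:9944076-9944225, minus strand), which carries small nucleolar RNAs and whose peak holds the ETS-family letters at 2 places, Snhg20 (chr11:117076676-117076825, plus strand), and 1700020I14Rik (chr2:119594216-119594365, plus strand), the mouse Cyrano gene, a lncRNA that regulates a microRNA.
Snhg6: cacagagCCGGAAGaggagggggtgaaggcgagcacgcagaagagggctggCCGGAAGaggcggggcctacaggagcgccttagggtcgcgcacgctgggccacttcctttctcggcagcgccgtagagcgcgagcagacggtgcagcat
Snhg20: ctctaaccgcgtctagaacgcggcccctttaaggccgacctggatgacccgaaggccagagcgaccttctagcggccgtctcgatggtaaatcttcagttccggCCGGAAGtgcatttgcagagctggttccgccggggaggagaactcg
1700020I14Rik: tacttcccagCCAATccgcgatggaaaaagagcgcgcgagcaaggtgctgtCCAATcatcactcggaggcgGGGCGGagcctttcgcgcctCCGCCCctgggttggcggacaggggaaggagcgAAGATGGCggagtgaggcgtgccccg

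Imprinted genes, expressed from the allele of 1 parent, gave the next 3. The Meg3 peak (chr12:109540856-109541005, plus strand) holds CCAAT, the cyclic AMP response element TGACGTCA and a TATA stretch ahead of the TSS, which is base 146 of the sequence. The others are H19 (chr7:142578176-142578325, minus strand), with a pair of GC boxes near the end of the peak, and Kcnq1ot1 (chr7:143296516-143296665, minus strand), with CCAAT upstream of a TSS at base 117.
Meg3: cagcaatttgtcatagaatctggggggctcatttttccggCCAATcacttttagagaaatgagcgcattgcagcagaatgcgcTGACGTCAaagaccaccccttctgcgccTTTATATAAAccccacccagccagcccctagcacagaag
H19: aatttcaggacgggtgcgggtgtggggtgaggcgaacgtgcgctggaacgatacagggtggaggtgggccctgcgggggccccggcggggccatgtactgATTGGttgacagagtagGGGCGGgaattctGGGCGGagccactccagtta
Kcnq1ot1: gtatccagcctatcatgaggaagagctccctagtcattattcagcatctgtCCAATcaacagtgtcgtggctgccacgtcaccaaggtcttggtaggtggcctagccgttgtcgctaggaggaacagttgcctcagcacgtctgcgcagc

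The next pair stands for strong peaks with few CpGs: Dnm3os (chr1:162217596-162217745, plus strand), which carries microRNAs of skeletal mesenchyme and holds none of the letters searched for, and E130018N17Rik (chr2:168154556-168154705, minus strand).
Dnm3os: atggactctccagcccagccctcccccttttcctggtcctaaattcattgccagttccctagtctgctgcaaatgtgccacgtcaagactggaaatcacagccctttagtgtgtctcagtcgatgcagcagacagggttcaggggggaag
E130018N17Rik: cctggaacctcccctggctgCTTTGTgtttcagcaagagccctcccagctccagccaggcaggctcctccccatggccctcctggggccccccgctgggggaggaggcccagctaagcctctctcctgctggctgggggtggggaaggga

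The last 3 lie near regulators of the face. Dlx1as (chr2:71537816-71537965, minus strand) is near the jaw homeobox gene Dlx1, with its TSS at base 75 and TATAAA upstream of it. Gm47061 (chr13:40722836-40722985, plus strand) is near the neural crest regulator Tfap2a, and A830082K12Rik (chr13:78201676-78201825, plus strand) is near the nuclear receptor gene Nr2f1, with the added CTCF core letters.
Dlx1as: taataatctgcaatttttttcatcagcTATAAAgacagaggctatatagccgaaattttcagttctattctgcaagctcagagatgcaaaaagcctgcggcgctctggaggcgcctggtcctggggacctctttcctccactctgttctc
Gm47061: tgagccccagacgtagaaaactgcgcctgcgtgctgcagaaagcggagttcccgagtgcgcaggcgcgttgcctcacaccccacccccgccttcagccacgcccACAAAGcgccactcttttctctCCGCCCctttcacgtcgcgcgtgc
A830082K12Rik: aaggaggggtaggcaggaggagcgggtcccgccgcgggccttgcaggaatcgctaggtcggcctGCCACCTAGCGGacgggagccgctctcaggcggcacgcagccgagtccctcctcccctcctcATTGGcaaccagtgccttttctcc

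How open these promoters were was read from the value in column 7 of the deposited peak files, called strength here. It is a whole number of no stated scale against depth, and it served as a rank within a library. Members had a median strength of 38 in replicate 1 (quartiles 24 and 56, range 7 to 117) and of 76 in replicate 2 (quartiles 52 and 98.75, range 13 to 144). The percentile of a peak is its rank among all peaks of its own library. The median percentile of members was 80.65 in replicate 1 and 81.14 in replicate 2, a mean of 80.9 ± 0.351 (SD, n = 2). Because the match between libraries chose the members, their percentiles are set against those of other shared peaks only. All shared peaks had 77.1 ± 0.688, those at protein-coding promoters 94.2 ± 0.0315, and the other shared peaks more than 1 kb from protein-coding TSSs, called distal below, 72.0 ± 0.932 (each SD, n = 2). LncRNA promoters lay between the protein-coding promoters and the distal peaks in each library, and the gaps were wider than the spread between the libraries.

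**Figure D1:**
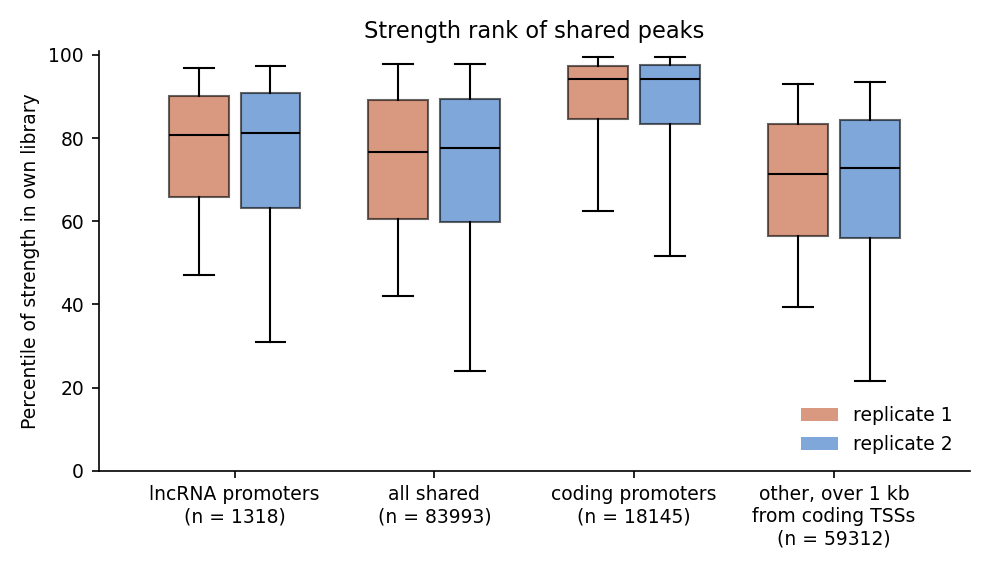
Percentile of strength in the peak's own library (vertical axis) for 4 sets of shared peaks, replicate 1 in orange and replicate 2 in blue. Boxes span the quartiles with the median as a line, and whiskers reach the percentiles 5 and 95 of the set. The medians of lncRNA promoters (80.65 and 81.14) lie between those of distal peaks (71.4 and 72.7) and of protein-coding promoters (94.2 in both).

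The upper end showed the same order. Peaks above percentile 90 in both libraries were 292 members (22.1%), against 60.3% of shared peaks at protein-coding promoters and 7.75% of distal ones. Above percentile 95 in both were 118 members (8.95%), against 41.6% and 1.39%. Only 4 members were above percentile 99 in both libraries. At the lower end, the weakest 5% of members reached percentile 46.97 or less in replicate 1 and 30.9 or less in replicate 2. At the thresholds of the rule, the 151 members with the smallest overlap of 90 bp had medians of 33 in replicate 1 and 63 in replicate 2, and the 100 peaks just outside, at 70 bp, had 24.5 and 52.5. The member farthest from its TSS, Gm15841 at 500 bp, had 32 and 43, and the peak at Gm26802, 501 bp away, had 55 and 119. The member nearest to a protein-coding TSS, AI480526 at 1002 bp, had 89 and 132, and the peak at C130021I20Rik, at 1000 bp, had 35 and 53.

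Most lncRNA genes had no shared promoter peak by the rule. Of 8312 lncRNA genes of the 3 types, 7339 had a TSS at which the rule could find a member, and 1038 of these had 1 or more (14.1%, exact 95% binomial interval 13.35 to 14.96, for counting error only). The share was 14.5% for lincRNA genes (721 of 4959), 13.3% for antisense genes (313 of 2348) and 12.5% for bidirectional ones (4 of 32), with intervals that overlapped. No promoter peak more than 1 kb from every protein-coding TSS was found in either library at 5182 genes. Peaks nearer to a protein-coding TSS, such as the 1373 shared ones not taken, were not counted here. A gene open only there therefore counts as without a peak. A further 180 had peaks in both libraries but no shared one, 205 had a peak in replicate 1 only and 734 in replicate 2 only. By comparison, 13090 of 20807 protein-coding genes (62.9%, 62.25 to 63.57) had a shared peak within 500 bp of a TSS, with no such peaks left out. A peak at any TSS of a gene counted, and protein-coding genes have more annotated TSSs per gene. They had 54050 TSSs on chromosomes 1 to 19 and X, and the 8312 lncRNA genes had 11489 on chromosomes 1 to 19. Among the 1038 genes, 863 had symbols of the Gm-number or Rik kind. Such symbols mostly stand for transcripts without a name of their own, although 1700020I14Rik is known as Cyrano. The share of such symbols over all 7339 genes was not counted, so nothing about open promoters is read from this number.

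The share of open genes went with the CpG content of the promoter in both kinds of gene. As counted here, lncRNA genes stayed below protein-coding genes at each CpG content. The measure was the CpG observed/expected ratio, the number of CpG pairs over that expected from the C and G content, here over 500 bp to each side of the gene's own start. Where it was under 0.2, 148 of 2925 lncRNA genes (5.06%) and 10.1% of protein-coding genes had a shared peak. From 0.2 to 0.4 the shares were 13.5% and 35.1%, and from 0.4 to 0.6 they were 32.8% and 77.9%. From 0.6 to 0.8 they were 44.3% and 92.3%. At 0.8 or more they were 39.5% (64 of 162, interval 31.93 to 47.48) and 95.1%. The last 2 classes of lncRNA genes did not differ beyond their intervals, and in each class the intervals of lncRNA and protein-coding genes were apart. Of the 7339 lncRNA genes, 2925 were in the lowest class and 3133 in the next. The kinds of gene were not counted alike. Peaks within 1 kb of a protein-coding TSS were left out for lncRNA genes, and none were left out for protein-coding genes. In both kinds the peak could lie at another TSS than the start whose CpG ratio was taken. Protein-coding genes also had more annotated TSSs per gene at which a peak could count. How much these differences add to the gap was not tested.

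**Figure D2:**
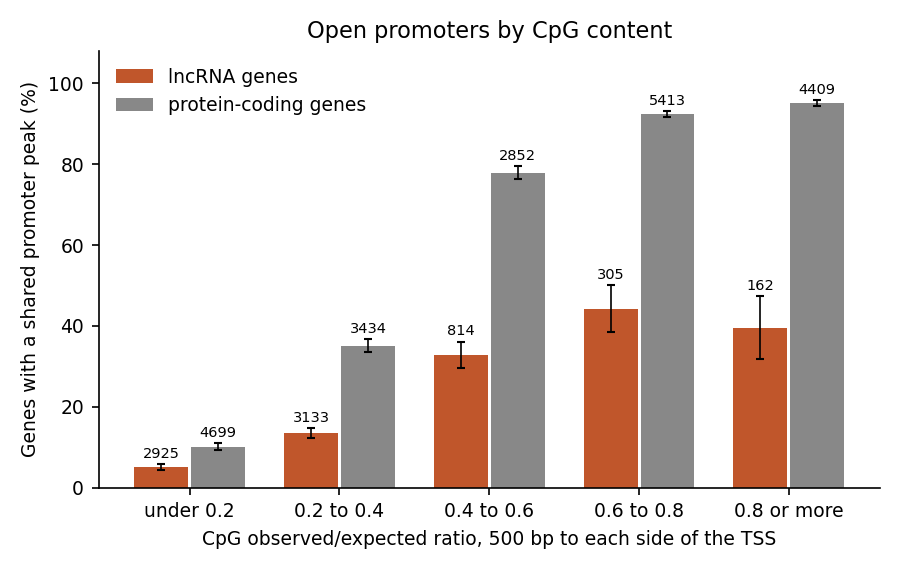
Percent of genes with a shared promoter peak (vertical axis) in 5 classes of the CpG observed/expected ratio around the start of the gene, lncRNA genes in orange and protein-coding genes in grey. Error bars are exact 95% binomial intervals and the numbers above the bars are genes. Among lncRNA genes the share goes from 5.06% in the lowest class to 44.3% and 39.5% in the highest. Each orange bar is below its grey neighbour. Peaks within 1 kb of a protein-coding TSS were left out for lncRNA genes only, and protein-coding genes have more annotated TSSs per gene.

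Among the members themselves, 463 of 1318 (35.1%, interval 32.55 to 37.78) had a CpG ratio of at least 0.6 over their own 150 bp, against 76.6% of shared peaks at protein-coding promoters and 12.6% of distal ones. Median GC content was 55.3%, 66.0% and 50% in the same order. Median strengths of the 463 CpG-rich members were 52 in replicate 1 and 91 in replicate 2, a percentile of 88.3 ± 0.138 (SD, n = 2), and the 855 CpG-poor members had 31 and 69, a percentile of 75.8 ± 1.61. Within either class the median strength of lncRNA promoters lay below that of protein-coding ones and above that of distal peaks. CpG-rich protein-coding promoters had 81 and 119 and CpG-rich distal peaks 40 and 75. CpG-poor ones had 40 and 79 at protein-coding promoters and 27 and 62 at distal sites. Across members the Spearman correlation of CpG ratio and percentile was 0.43 in replicate 1 and 0.314 in replicate 2 (n = 1318 peaks that share 2 libraries, given as a description).

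Of the 118 members above percentile 95 in both libraries, 93 (78.8%) were CpG-rich, and 7 (5.93%) had a CpG ratio under 0.3, as 29.7% of all members had. These few strong and CpG-poor promoters included 2810433D01Rik, 5 bp from its TSS, with strengths of 89 and 136 in replicates 1 and 2 (CpG ratio 0.216). E130018N17Rik had 93 and 131 with a ratio of 0.056 at a GC content of 69.3%, so that its sequence, printed above, is rich in C and G but nearly without CpG. Gm12746 had 90 and 130, Tvp23bos 80 and 133, and Gm3716 82 and 127. Just below these, Dnm3os had 72 and 128 with a ratio of 0.185. Dnm3os lies on the opposite strand inside the dynamin gene Dnm3, and mice without it have skeletal defects. Roles are not given here for the other genes of this group.

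Motif letters were counted on both strands of each 150 bp, as a description of sequence and not of factor binding. The ETS letters CCGGAAG stood in 4.25% of members, 10.5% of shared peaks at protein-coding promoters and 1.33% of distal ones. The GC box GGGCGG stood in 20.3%, 52.4% and 8.64%, and the cyclic AMP response element TGACGTCA in 1.82%, 2.44% and 0.422%. For all 3, members lay between the other sets. With CpG-rich peaks alone, 5.62% of members and 12.4% of protein-coding promoters held the ETS letters, 35.9% and 59.9% the GC box, and 3.24% and 2.84% the response element. In CpG-poor peaks the shares of members and protein-coding promoters were 3.51% and 4.23% for ETS, 11.9% and 27.9% for the GC box, and 1.05% and 1.13% for the response element. ATTGG, read by NF-Y as CCAAT, stood in 20.9% of members, 23.3% of protein-coding promoters and 18.5% of distal peaks. The YY1 letters AAGATGGC were in 0.683%, 2.19% and 1.12%, and share letters with many CTCF sites. The NRF1 palindrome was in 4 members (0.303%), against 1.37% of protein-coding promoters.

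Letters for E-box, SOX, AP-1 and homeobox factors were less frequent at protein-coding promoters than at distal sites. The E-box CAGCTG was in 14.0% of members, 14.4% of distal peaks and 8.76% of protein-coding promoters. ACAAAG, for SOX proteins, was in 11.5%, 13.3% and 6.195%, the AP-1 letters TGANTCA in 4.63%, 4.43% and 1.802%, and the homeobox letters TAATTA in 2.35%, 3.83% and 0.595%. With CpG-poor peaks alone, distal peaks and protein-coding promoters differed less. In the same order the E-box was in 16.0%, 14.9% and 13.95% and the SOX letters in 12.2%, 13.8% and 9.645%. The AP-1 letters were in 5.38%, 4.64% and 3.69%, and the homeobox letters in 3.16%, 3.88% and 1.39%. A long form of the CTCF motif was in a single member. Because it matched so little, a shorter CTCF core was added after seeing the data and stood in 6.90% of members, 9.99% of distal peaks and 4.77% of protein-coding promoters. TATAAA, added likewise, was in 3.87%, 5.62% and 2.03%. Repeats covered at least 50% of the sequence in 1.67% of members, 4.50% of distal peaks and 0.992% of protein-coding promoters.

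Members lay farther from the nearest annotated TSS than shared peaks at protein-coding promoters did. The midpoint was upstream of the nearest lncRNA TSS in 786 members (59.6%), downstream in 527 (39.98%) and on it in 5, with a median 37 bp upstream. For protein-coding promoters 61.6% were upstream with a median of 21 bp. The median distance in either direction was 144.5 bp for members and 69 bp for protein-coding promoters, and 32.4% and 52.2% of peaks covered the TSS base. Protein-coding genes have more annotated TSSs per gene, so that a TSS close to a peak is likelier. How much this adds to the difference was not tested. Median strengths were 42 and 84 for the 537 members within 100 bp of the TSS. The 342 beyond 100 and up to 250 bp away had 34 and 71, and the 439 beyond 250 bp had 34 and 70. At protein-coding promoters the fall was from 83 and 121 within 100 bp to 44 and 76 beyond 250 bp.

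**Figure D3:**
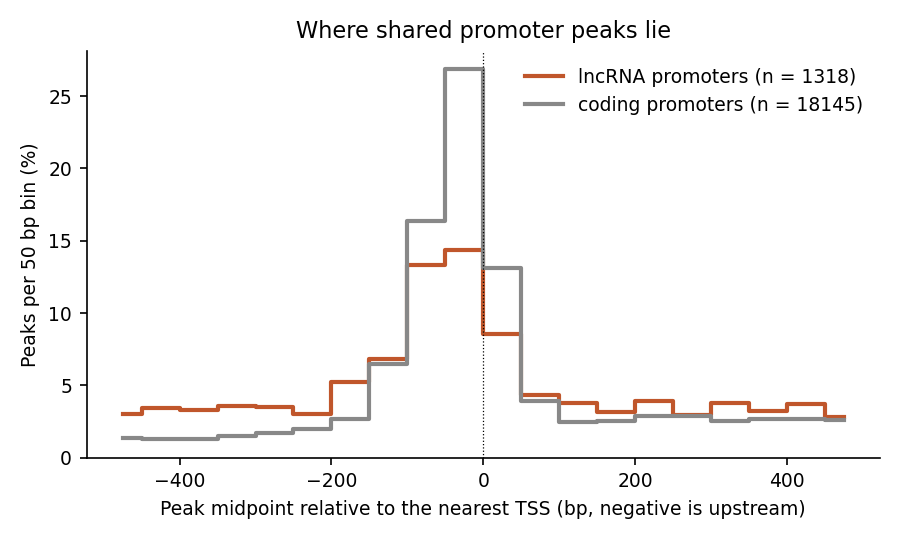
Position of shared peaks around the nearest TSS (horizontal axis, bp from the TSS to the peak midpoint in the direction of transcription) as percent of the set in each 50 bp bin (vertical axis), lncRNA promoters in orange and protein-coding promoters in grey. Both lines are highest in the 50 bp just upstream of the TSS, and the orange line is lower there and higher at the upstream edge. Protein-coding genes have more annotated TSSs per gene.

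The 2 libraries ranked the members alike. Pearson's r between the strengths of the 1318 members was 0.89 and Spearman's rho also 0.89, and Pearson's r was 0.927 for protein-coding promoters and 0.84 for distal peaks. These describe matched peaks of 2 libraries. The median difference in percentile between the libraries was 4.65 points for members, 1.72 for protein-coding promoters and 6.67 for distal peaks. The percentile was higher in replicate 1 for 677 members (51.4%). Peaks had exactly the same position in both libraries at 391 members (29.7%), and were shifted by 20 bp, that is overlapped by 130 bp, at 511. The 5 members with the largest difference all ranked higher in replicate 1. Gm38102 had strengths of 26 and 28 in replicates 1 and 2 (percentiles 68.8 and 21.4), and Gm5165 had 20 and 23 (58.7 and 10.4). Neat1 had 25 and 26, Hotairm1 21 and 20, and Notumos 20 and 21. In all 5 the strength in replicate 1 was modest, and none was CpG-rich.

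**Figure D4:**
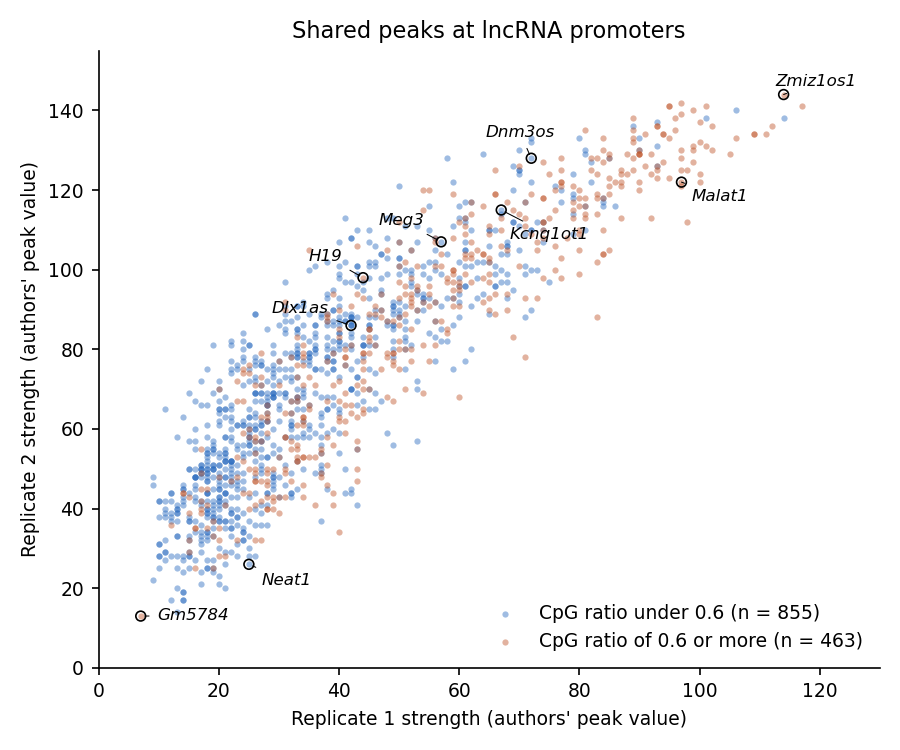
Strength of each of the 1318 members in replicate 1 (horizontal axis) and replicate 2 (vertical axis), in the authors' units of the peak value, with CpG-rich members in orange and CpG-poor ones in blue. Circles mark named members, each by its strongest peak except Gm5784, marked at its weakest (7 and 13). Points follow a single bent band, and most points at its upper end are orange.

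The 10 members strongest by mean rank over both libraries had strengths from 97 to 117 in replicate 1 and from 136 to 144 in replicate 2, and 7 of them were CpG-rich. First was Zmiz1os1 (chr14:25457676-25457825), an antisense gene whose peak lay 47 bp downstream of its TSS and 1473 bp from the TSS of Zmiz1, a coactivator gene, with strengths of 114 and 144. In the authors' hotspots, wider enriched regions, it lay in one of 3464 bp in replicate 1 and one of 5610 bp in replicate 2. The lincRNA gene 6720427I07Rik (chr13:48546576-48546725) had 117 and 141, and Gm15287 (chr13:111725376-111725525), 39100 bp from the corepressor gene Mier3 and CpG-poor at a ratio of 0.378, had 114 and 138. Next came AC132957.1 (chr19:45058436-45058585) with 106 and 140, 1700064M15Rik (chr12:99627936-99628085) with 101 and 141, and Gm33195 (chr13:43864596-43864745), 2 bp from its TSS, with 112 and 136. The rest were 1700096K18Rik, 1700113A16Rik, Gm12762 and Gm11527, with 97 to 102 in replicate 1 and 136 to 142 in replicate 2. No roles are given here for these genes. The 3 weakest members were Gm13219 with 10 and 25, Gm4425 with 9 and 22, and Gm5784 with 7 and 13.

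Genes that carry small RNAs in their transcripts held some of the most open promoters. Of 21 genes listed as hosts, 11 had members, 21 peaks in all. Of all lncRNA genes that could have a member 14.1% had one, while this list includes genes that the rule could not take. In the small nucleolar RNA group the strongest peak of each of 5 genes was CpG-rich. Snhg20 had strengths of 93 and 136 in replicates 1 and 2, and Snhg6 had 89 and 128. Snhg7os, listed by its symbol although it is antisense to a host gene, had 95 and 123. Snhg12 had 82 and 128, and Epb41l4aos, on chromosome 18, had 88 and 124. In each of these 5 the peak lay within 81 bp upstream of the TSS. Snhg6, Snhg7os and Snhg12 each had a weaker second member at 23 to 33 in replicate 1 and 52 to 75 in replicate 2. All 5 main peaks stood above percentile 95 in both libraries, while over the 21 peaks of the list the median percentiles were 81.4 and 75.6, against 79.9 and 81.1 for the other 1297 members.

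MicroRNA hosts were more varied. Dnm3os, printed above, had 72 and 128. Mir670hg had 77 and 122 at its strongest peak, and 34 and 62 and 28 and 43 at the others. Mir155hg, whose microRNA is known from immune cells, had 42 and 81 and 38 and 67. Of the hosts of a neuronal microRNA, Mir124-2hg had 28 and 62, and the 4 members of Mir124a-1hg had 26 to 43 in replicate 1 and 42 to 50 in replicate 2. Rmst, a lncRNA of neural progenitors, had 39 and 68 and 26 and 47. Promoter peaks were counted only more than 1 kb from every protein-coding TSS. Of the hosts without a member, Mir133a-1hg, of muscle, and Mir142hg, of blood cells, were without such a peak in both libraries. Mir17hg had peaks in both but none shared, and Mir9-3hg had one in replicate 1 only. Snhg9, Snhg10 and Snhg18 lay too near to protein-coding TSSs, and Gas5, Zfas1 and Dleu2 had another gene type in the annotation.

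Imprinted lncRNAs are made from the chromosome of 1 parent and several silence genes around them on it. Of the 10 listed, 5 had members, 6 peaks in all. Of all lncRNA genes that could have a member 14.1% had one, while this list includes the genes of other types named below. Nespas, antisense in the Gnas locus, had 77 and 121 in replicates 1 and 2 at a peak 75 bp upstream of its TSS (chr2:174295436-174295585). The Kcnq1ot1 promoter had 67 and 115, and a second peak 498 bp inside the transcript had 29 and 50. Meg3 had 57 and 107 at 70 bp upstream. Airn, which starts inside Igf2r, had 48 and 105 at 6 bp downstream (chr17:12741316-12741465). H19 had 44 and 98 at 108 bp upstream. The strongest peak of each gene stood above percentile 84 in replicate 1 and above percentile 90 in replicate 2, and the members of this group had median percentiles of 88.5 and 92.9, against 79.9 and 81.1 for the other 1312. Peaks do not tell the parental alleles apart. Mirg was without a promoter peak more than 1 kb from every protein-coding TSS in both libraries. Rian, Snhg14, A330076H08Rik and Peg13 were of other gene types.

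The list of widely studied lncRNAs held 32 symbols, and 13 of these had members. Norad and Cyrano were listed under these names and under their Rik symbols, so that the lncRNAs are fewer than 32. Of all lncRNA genes that could have a member 14.1% had one, while this list includes symbols that the rule could not take. Over 25 peaks strengths ran from 15 to 99 in replicate 1 and from 20 to 131 in replicate 2. Median percentiles were 79.2 and 72.7, against 80.65 and 81.14 for the other 1293 members. Malat1, a nuclear RNA of most cell types, had 97 and 122 at a peak centred on its TSS (chr19:5802596-5802745), with further peaks at 34 and 63 and at 19 and 38. The Cyrano gene 1700020I14Rik had 99 and 131. Neat1, the RNA on which paraspeckles form, had 25 and 26 at the peak 8 bp from its TSS, while a strong peak of 90 and 120 (chr19:5845876-5846025) lay within 500 bp of a Neat1 TSS but nearest to that of Frmd8os, on the opposite strand. Miat had 65 and 90. The Norad gene, 2900097C17Rik, which guards chromosome stability, had 59 and 95. Pvt1, 50549 bp from the TSS of Myc, had 47 and 88. Lncpint, a p53-induced RNA, had 5 members, the first by rank at 47 and 75 and the last at 15 and 29. Trp53cor1, another RNA of the p53 response, had 27 and 67.

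Some of the studied genes lie beside homeobox and POU genes. Pantr1, next to the neural gene Pou3f3, had 49 and 86 and 37 and 55. Dlx1as had 42 and 86 at its TSS and 27 and 53 at 199 bp downstream. Dlx6os1, known as Evf2, an RNA across the enhancers of Dlx5 and Dlx6, had 34 and 58, 38 and 45, and 18 and 44 at its 3 members. In the Hoxa cluster Hottip, beside Hoxa13, had 36 and 41 (percentiles 79.2 and 48.6), and Hotairm1 had 21 and 20 and 19 and 25. Both ranked lower in replicate 2. Tug1, Hotair and Mhrt lacked a promoter peak more than 1 kb from every protein-coding TSS in both libraries. Hoxaas3 had one in replicate 1 only. Peaks nearer to a protein-coding TSS were not counted, so these genes may still have one. Of the other listed genes 8 were of the type processed_transcript and Tunar was of the type protein_coding. A further 6 symbols matched no gene, Norad and Cyrano among them, whose genes stand in the annotation under the Rik symbols given above.

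LncRNA genes named after a protein-coding gene with the ending os, as or ot were counted next. Of 213 such genes that could have a member, 41 had one (19.2%), against 14.1% of all lncRNA genes that could. In all 60 members had a TSS of such a gene within 500 bp. Their median strengths were 38 and 76, the same as over all members. Besides Zmiz1os1, the strongest were Tvp23bos with 80 and 133, and Junos, 1089 bp from the TSS of the AP-1 gene Jun, with 81 and 130. Kif16bos had 80 and 120. Hoxd3os1, near Hoxd3, had 79 and 114, and Hoxb3os had 52 and 80. Sox6os, beside the cartilage regulator Sox6, had 50 and 86, Otx2os1 had 56 and 77, and Nkx2-2os had 38 and 51. Haglr, among the 4 members of the bidirectional type, lies in the Hoxd cluster and had 48 and 87.

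Members whose nearest protein-coding TSS was that of a regulator of the face were then listed, at any distance. Nearness says nothing about which gene a promoter acts with. They were 33 of 1318 (2.50%), at 22 lncRNA genes and 16 of the 52 listed regulators, and 1.87% of distal peaks were nearest to the same regulators. Their median strengths were 39 and 70, percentiles of 81.4 and 77.6, against 79.9 and 81.1 for the other 1285 members. Nr2f1, a nuclear receptor gene of facial mesenchyme, had 6 members at 4 lncRNA genes. The strongest was at A830082K12Rik, 1994 bp from the Nr2f1 TSS, with 97 and 125, and 2 more at this gene had 54 and 81 and 37 and 64. The others were 3110006O06Rik with 41 and 89, Gm29318 with 30 and 77, 1085894 bp from the Nr2f1 TSS, and Gm31946 with 28 and 64, at 227694 bp. Tfap2a, which encodes AP-2 alpha of neural crest and ectoderm, had 4. Gm47061, 6033 bp from the Tfap2a TSS, had 100 and 124, while Tfap2a itself was among the regulators without a shared peak within 500 bp of its protein-coding TSSs. Gm9979 had 49 and 77 and 42 and 84, and Gm47039, 122513 bp from the Tfap2a TSS, had 29 and 68.

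Other regulators had members at 1 or 2 lncRNA genes. G630016G05Rik, 1332 bp from the TSS of the TALE homeobox gene Meis2, had 93 and 126, with a second peak of 43 and 73. Tbx3os2, near the T-box gene Tbx3, had 66 and 89. 2610035D17Rik, 390427 bp from the TSS of the cartilage regulator Sox9 in the gene desert beside it, had 60 and 88. Another member of this gene, nearest to Slc39a11, had 77 and 122. Gm11378, near the palate gene Foxf2, had 58 and 82 and 28 and 40. 5033428I22Rik, near the lower-jaw gene Hand2, had 45 and 70, and Gm29683, near Nr2f2, had 42 and 83 and 35 and 53. Gm28387, 224347 bp from the TSS of the neural crest gene Pax3, had 32 and 61. The lowest of the list was Mannr, 106692 bp from the Mecom TSS, with 12 and 42. Ranks differed most between the libraries at BC048602, near the palate gene Osr2, with 15 and 69 (percentiles 46.97 and 76.9), and at Gm43120, near Tbx15, with 41 and 44 (82.7 and 53.2) and 39 and 44.

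**Figure D5:**
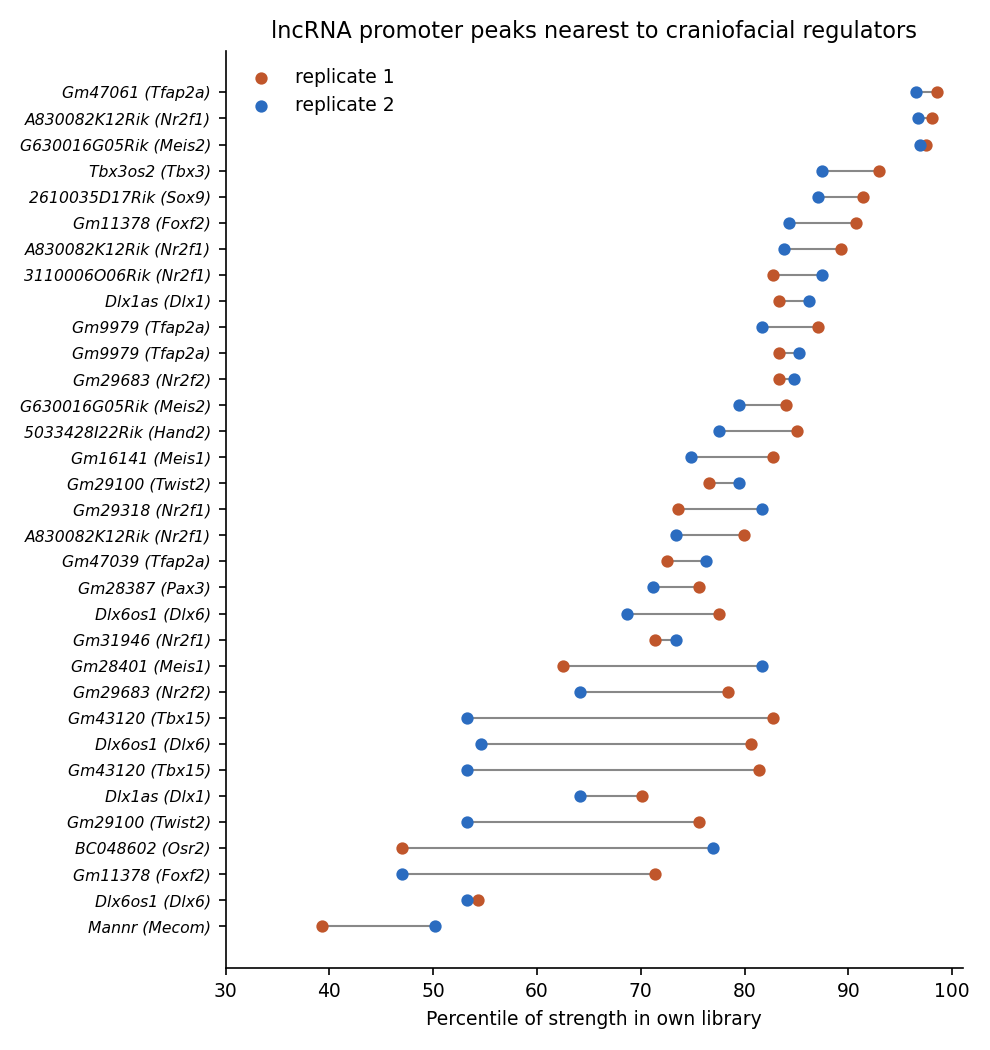
Percentile of strength in replicate 1 (orange) and replicate 2 (blue), on the horizontal axis, with a grey line joining the libraries. Shown are the 33 members whose nearest protein-coding TSS belongs to a listed craniofacial regulator (named in brackets). They are ordered by their mean percentile over both libraries. The axis starts at 30. Members at Gm47061, A830082K12Rik and G630016G05Rik stand above percentile 96 in both libraries, and lower in the list the libraries differ more.

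Several members could share a gene. Of the 1038 genes, 786 had 1 member, 204 had 2 and 48 had 3 or more, up to 5 at AI480526, Gm26885 and Lncpint. AI480526, upstream of the histone methyltransferase gene Setd1b, had strengths of 89 and 132 at the peak nearest to Setd1b, then 70 and 124, 55 and 94, 54 and 93, and 48 and 59. Gm26885, near the kinase gene Pim1, ran from 81 and 129 to 19 and 57. C130071C03Rik, near Mef2c, had 4 members from 33 and 78 to 25 and 28. Within 500 bp of TSSs of more than 1 lncRNA gene lay 37 members, 33 had lncRNA TSSs of both strands in reach, and 107 overlapped another member, so that members are not all separate sites.

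By place, 971 members (73.7%) lay outside protein-coding genes, 255 (19.3%) in an intron and 92 (6.98%) over an exon of one. Those over exons were CpG-rich in 67.4% of cases, against 27.1% in introns and 34.2% outside. With distance from the nearest protein-coding TSS the CpG-rich share went from 47.4% at 1 to 2 kb and 45.4% at 2 to 5 kb to 33.9% at 20 to 100 kb and 22.9% beyond 100 kb. Median strengths were 40 and 69 in the first of these classes, 47 and 82.5 in the second, and 32 and 68.5 in the last. LincRNA and antisense members did not differ in strength by more than 1 unit of the median (37 and 76 for the 915 lincRNA members, 38 and 76 for the 399 antisense ones). By chromosome the number of members ran from 38 on chromosome 18 to 92 on chromosome 13. Hotspots that held members had median lengths of 458.5 bp in replicate 1 and 580.5 bp in replicate 2. All hotspots had 201 and 240 bp. The authors' −log10 q of the hotspot was at its ceiling of 100 for 50.8% and 78.0% of members in replicates 1 and 2. Of all hotspots 29.5% and 35.1% were at this ceiling. All hotspots include those without a matched peak, and a hotspot with several members was counted once per member. Nothing is therefore read from these differences. The longest hotspot with a member, of 11532 bp in replicate 1, was at Pantr1.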

How the data were processed

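Per the accompanying notes, the authors called peaks and hotspots on mm10 in each library alone. Names and versions of aligner and caller: not given in the sources used here. Strength is the signal value in column 7 of the deposited peak files, a whole number that reached 134 in replicate 1 and 149 in replicate 2 on chromosomes 1 to 19. The deposited hotspot files give a −log10 q value between 1.30 and 100. The files used here hold no read totals, so that depth is unknown and intervals cover counting error only. Signal was therefore ranked within a library and not compared between them as a level.

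Peaks were matched and set against GENCODE M21 with Python 3.11.15, pandas 2.3.3 and NumPy 2.4.6, intervals came from SciPy 1.17.1 (Clopper-Pearson), and figures from matplotlib 3.10.9. Overlaps and distances to the nearest TSS were tested on simulated data with known answers. Protein-coding TSSs were the starts of protein-coding transcripts of protein-coding genes, 54050 on chromosomes 1 to 19 and X. Peaks on other chromosomes were left out. GC, CpG and repeat content came from the RefSeq genome sequence. With 1 group of 2 libraries no test was run, and values are given per library or as a mean ± SD of both.

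The members, gene lists and motifs were chosen with earlier results of these data known. Named genes were the 10 strongest and 3 weakest members by mean rank, those with an os, as or ot symbol, listed imprinted, small RNA host and widely studied genes, genes with at least 3 members, members at each threshold, the 5 with the largest percentile difference between libraries, and those nearest to a listed craniofacial regulator. Haglr, the second member of 2610035D17Rik and the strong CpG-poor members were named after their values were seen. Alternatives changed the overlap, the window, the distance to protein-coding TSSs, the annotation and the peaks used.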

Additional observations from a re-analysis of the deposited data

Results flagged for a closer look

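Chromosome X was outside the rule, and 21 of its 1957 shared peaks met the rule otherwise, at 16 lncRNA genes. Their median strengths were 34 in replicate 1 and 66 in replicate 2. Ftx, a lncRNA of the X inactivation centre, had 88 and 123. Xist, the RNA that coats the inactive X, had 34 and 64 at a peak 3 bp from its TSS, and its antisense gene Tsix had 21 and 60. Embryos of both sexes were pooled, so that these values belong to no single sex. Gm15138 had 78 and 118.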

How the results depend on the processing

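Reported values were 1318 members, 1038 genes, 14.1% of genes, a median percentile of 80.9, 35.1% CpG-rich and 69.4% at lincRNA genes, and the cause of each change below was not tested. An overlap of 1 bp gave 15.9% of genes and percentile 77.2, one of 75% of the peak 10.7% and 83.1, and one of 90% 391 members, 376 genes, 5.12% and 84.1. A window of 250 bp gave 10.9% of genes and percentile 81.8, and one of 1000 bp 17.1%, 78.3 and 31.5% CpG-rich. More than 2 kb from protein-coding TSSs, 73.9% of members were at lincRNA genes, and more than 5 kb away 77.4%, with 13.2% of genes, percentile 79.9 and 32.2% CpG-rich. Starts of every transcript of protein-coding genes gave percentile 80.5, gene record starts 13.1% of genes, and further noncoding gene types 57.4% at lincRNA genes. The 50000 strongest peaks of each library gave 680 members, 610 genes, 8.31% of genes, percentile 90.4 and 46.2% CpG-rich. Peaks of a single library ranged over 2266 to 2833 members, 1423 to 1942 genes, 19.4% to 26.5% of genes, percentile 59.7 to 70.1, 24.8% to 27.1% CpG-rich and 68.7% to 69.7% at lincRNA genes. Matching from replicate 2 gave 1289 members and 1039 genes, and the basic annotation, chosen after seeing the data as were 2 motifs, 1356 and 1067. No paired analysis was possible because the series has 1 group. Depth is unknown, so that a promoter without a peak may be open below what these libraries could show.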
